A study of Mus musculus with 15 samples.

Results

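Wild type mouse embryonic stem (ES) cells grown for 6 days in N2B27, a serum-free medium used to direct them towards neural cells, were compared with the same lines as ES cells at day 0. The genes described are those with at least 1 FPKM (fragments scaled to transcript length and to the library's total) in at least 2 of the 4 libraries. They numbered 12157 of the 18762 genes in the table. Just inside this limit 144 members had 1.0 to 1.1 FPKM in their second highest library, and just outside it 156 genes had 0.9 to 0.99. The study as a whole profiled messenger RNA of wild type and Mettl5-/- ES cells, strain C57BL/6N, as ES cells, as embryoid bodies at day 6 and in N2B27 at day 6, in 15 libraries. METTL5 is a methyltransferase that acts on ribosomal RNA. The 2 wild type lines are titled Ctr (replicate 1 here) and WT (replicate 2), and each gave 1 library per culture. The ES libraries are untreated, and the N2B27 libraries differ from them in the medium and the 6 days. Embryoid bodies, aggregates in which cells differentiate without direction, were grown for 6 days without LIF on coated dishes that keep cells from attaching. Each culture also had 3 Mettl5-/- libraries, which enter the estimate of the spread. The labels do not say how the 2 wild type lines relate or whether their cultures were started separately. The spread behind each p-value is therefore that of these samples and could be technical.

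ES cells hold a self-renewing state through a circuit around the transcription factors Pou5f1 (Oct4), Sox2 and Nanog, with a naive layer of factors such as Klf4, Esrrb and Zfp42 that depends on LIF. Without LIF, mouse cells in N2B27 pass through a formative state and many become neuroepithelial progenitors, marked by Sox1. Neural progenitors take a regional identity along the body axes from WNT, FGF, Hedgehog and BMP signals, and leave the cell cycle through proneural factors under Notch control.

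The estimated depth was 16450000 to 18350000 fragments for the wild type libraries, so that 1 fragment would give a 1 kb transcript 0.0545 to 0.0608 FPKM. Between 10953 and 11078 genes reached 1 FPKM in the ES libraries and 11633 to 11673 in the N2B27 libraries. Across genes, which are not independent replicates, both ES libraries correlated with r = 0.996 and both N2B27 libraries with r = 0.992. The cell types were checked through markers. The summed FPKM of 8 ES cell markers was 4200 and 4580 in ES cells and 93.7 and 122 in N2B27, and that of 8 neural progenitor markers was 22.4 and 23.5 in ES cells and 474 and 403 in N2B27. For 8 neuron markers the sum was 316 and 335 in ES cells and 538 and 634 in N2B27. In both replicates the sum of the ES cell markers was thus higher in ES cells, and the sums of the neural markers in N2B27, a label that names the medium. Among the neuron markers Stmn2 alone was not higher in N2B27, at 191.26 and 196.7 FPKM in ES cells and 111.79 and 192.5 in N2B27. The data are from bulk cultures, in which fewer cells of a type and less RNA per cell cannot be told apart.

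In the limma test over all 12929 genes fitted, on log2(FPKM + 1), 41.5% were higher and 29.2% lower in N2B27 at an adjusted p under 0.05, and these shares are the background for the gene groups that follow. With a change of at least 2-fold as well, 18.2% were higher and 9.24% lower. Of the 12157 members 5127 rose, 3643 fell and 3387 were not called. At least 2-fold changes were made by 2320 members that rose and 1188 that fell, at least 8-fold changes by 272 and 142, and at least 16-fold changes by 89 and 60. A total of 1117 members reached 1 FPKM in both N2B27 libraries only, and 553 in both ES libraries only. These had to differ by the rule that chose them, and 1094 and 535 of them were called. The median log2 fold change of all genes fitted was 0.12 as deposited, -0.0044 after median-ratio scaling and 0.22 as TPM, so small changes depend on the scale. "Rose" and "fell" below mean an adjusted p under 0.05, values are given as replicate 1 and replicate 2 of each culture, and fold changes are on the log2(FPKM + 1) scale with their standard error.

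The largest decreases were those of pluripotency genes. Zfp42 (Rex1), a zinc finger marker of the naive state, had 505.3 and 489.66 FPKM in ES cells and 3.71 and 2.35 in N2B27 (-6.97 ± 0.22, adjusted p = 6.17e-12). Esrrb, an orphan nuclear receptor of the naive circuit, had 188.58 and 189.46 FPKM in ES cells and 1.13 and 0.67 in N2B27 (-6.65 ± 0.14). Klf4, another naive factor, had 150.99 and 154.59 FPKM in ES cells and 4.28 and 6.39 in N2B27 (-4.62 ± 0.16). For each of these genes the lowest ES library was far above the highest N2B27 library. All 23 naive pluripotency members fell at least 2-fold, 7 of which were members through the ES libraries alone, with a median of -4.49. The smallest change among them was that of Lifr, the LIF receptor (-1.38), and the 24th gene listed, Dppa3, was below the level for a member. Their largest declines outside the transcription factors were those of Dppa5a (-6.89 ± 0.26), of Tdh (-6.57 ± 0.26), a threonine dehydrogenase on which mouse ES cells depend, and of Fgf4 (-5.27 ± 0.14).

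Core pluripotency factors fell by unequal amounts. Pou5f1 had 926.39 and 1054.27 FPKM in ES cells and 47.91 and 78.26 in N2B27 (-3.99 ± 0.25), and Nanog had 376.63 and 381.26 FPKM in ES cells and 10.95 and 15.79 in N2B27 (-4.75 ± 0.25). Sox2, which neural progenitors also use, had 282.09 and 287.46 FPKM in ES cells and 96.05 and 105.84 in N2B27 (-1.49 ± 0.11). The 3 genes did not overlap between cultures, but Pou5f1 and Sox2 stayed among well expressed genes. Of the 24 core pluripotency members 20 fell, 3 were not called and 1 rose, with a median of -2.65. The gene that rose was Lin28a, an RNA-binding protein that blocks let-7 maturation, from 95.98 and 91.03 FPKM to 244.12 and 280.9 (1.48 ± 0.09). Utf1, a chromatin factor of ES cells, had 707.01 and 814.58 FPKM in ES cells and 10.54 and 10.37 in N2B27 (-6.05 ± 0.14). Tdgf1 (Cripto), the Nodal coreceptor, had 448.09 and 440.05 FPKM in ES cells and 2.77 and 3.05 in N2B27 (-6.83 ± 0.26).

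Among the 20 largest decreases were also genes outside these lists. Tcf15, a bHLH factor linked to priming of ES cells, had 150.16 and 172.53 FPKM in ES cells and 0.78 and 0.72 in N2B27 (-6.53 ± 0.17). Inhbb, which encodes an activin subunit, had 63.56 and 66.02 FPKM in ES cells and 0.17 and 0.26 in N2B27 (-5.76 ± 0.10). Bcl3, a nuclear IkB family protein, fell (-5.47 ± 0.16), as did Mylpf (-5.43 ± 0.13), a myosin light chain gene known from fast muscle, and Hsd17b14 (-5.37 ± 0.14), a hydroxysteroid dehydrogenase. Stra8, a retinoic acid responsive gene of germ cells, had 39.24 and 40.27 FPKM in ES cells and was listed at 0 in both N2B27 libraries. Gm7325 had 75.58 and 87.39 FPKM in ES cells and 0 and 0.07 in N2B27.

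Genes of the formative state divided. Of 16 members 11 rose, 4 fell and 1 was not called, with a median of 1.85, and 1 of them was a member through N2B27 alone. Otx2, which marks the formative state and the anterior neural plate, had 7.41 and 8.9 FPKM in ES cells and 94.85 and 82.62 in N2B27 (3.29 ± 0.26). Zic2 had 8.12 and 6.82 FPKM in ES cells and 98.88 and 112.73 in N2B27 (3.66 ± 0.13), and Pou3f1 (Oct6) rose by 2.50 ± 0.13. Fgf5, the classic marker of primed cells, was low in both cultures at 0.25 and 0.1 FPKM in ES cells and 2.5 and 3.68 in N2B27 (1.79 ± 0.23). The 4 that fell were the ETS factors Etv4 (-3.60 ± 0.19) and Etv5 (-2.78 ± 0.15), the de novo methyltransferase Dnmt3a (-1.66 ± 0.10) and Foxp1 (-1.26 ± 0.12). Dnmt3b was at 31.97 and 26.4 FPKM in ES cells and 37.7 and 38.99 in N2B27 and was not called (0.39 ± 0.20, adjusted p = 0.0943). With TPM scaling it was called (0.49, adjusted p = 0.0341).

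**Figure D1:**
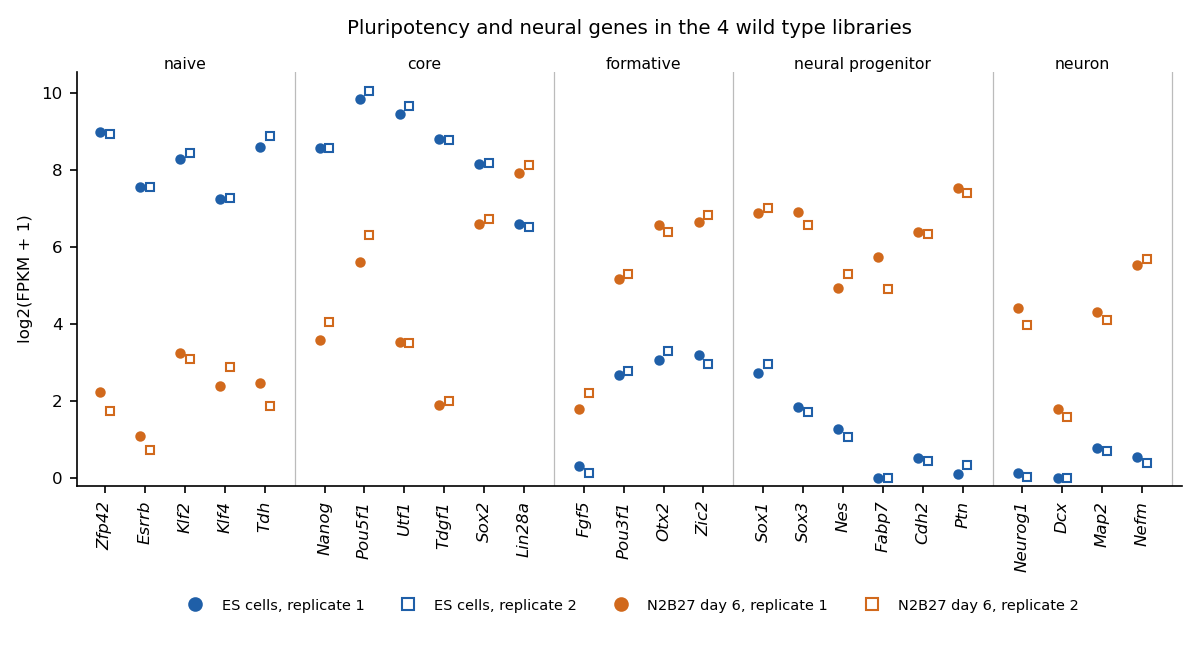
Level of 25 pluripotency and neural genes as log2(FPKM + 1) in the 4 wild type libraries, by gene group on the x axis; circles are replicate 1, squares replicate 2, blue ES cells and orange N2B27. Both ES libraries lie above both N2B27 libraries for each naive gene and for each core gene except Lin28a, and below them for each formative, neural progenitor and neuron gene shown.

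Neural progenitor genes rose together. Sox1, the first marker of the neural plate in mouse, had 5.64 and 6.79 FPKM in ES cells and 117.85 and 129.21 in N2B27 (4.11 ± 0.28). Sox3, of the same SOXB1 group, had 2.59 and 2.31 FPKM in ES cells and 119.7 and 94.59 in N2B27 (4.96 ± 0.17, adjusted p = 1.01e-11). Ptn, which encodes the growth factor pleiotrophin, had 0.08 and 0.28 FPKM in ES cells and 184.05 and 167.43 in N2B27 (7.23 ± 0.32). All of these were separated between cultures by more than the gap between replicates. Of 30 neural progenitor members 28 rose and 2 fell, with a median of 3.38, and 13 of them were members through N2B27 alone. The 2 that fell were Sox2 and Slc1a3, an astroglial glutamate transporter (-0.57 ± 0.16). Fabp7, a radial glia lipid-binding protein gene, was listed at 0 in both ES libraries and had 52.96 and 28.94 FPKM in N2B27. Pax6, an anterior neural factor, stayed low, at 1.05 and 0.75 FPKM in ES cells and 3.17 and 4.72 in N2B27 (1.37 ± 0.23).

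Along the anterior-posterior axis Otx2 was followed in level by genes of the midbrain and its border with the hindbrain. En1, an engrailed homeobox factor of the midbrain and rostral hindbrain, had 0.38 and 0.25 FPKM in ES cells and 85.48 and 58.34 in N2B27 (5.77 ± 0.26, adjusted p = 1.57e-10). Wnt1, secreted at the midbrain border and the roof plate, was listed at 0 in both ES libraries and had 82.15 and 57.55 FPKM in N2B27. Dmbx1, a midbrain homeobox factor, rose from 1.32 and 1.06 FPKM to 18.79 and 15.08 (3.03 ± 0.19). Replicate 1 had the higher level of these 3 genes in N2B27. Lmx1a (2.82 ± 0.30) and Lmx1b (2.98 ± 0.17), LIM factors of the midbrain floor and roof plate, rose to levels of 6.2 and 8.59 and of 8.31 and 6.32 FPKM. Of 14 members of the midbrain and isthmus list, 7 of which were members through N2B27 alone, 10 rose and 4 fell. Gbx2, which sets the hindbrain side of the border and is also made by ES cells, had 86.23 and 96.15 FPKM in ES cells and 36.07 and 35.07 in N2B27 (-1.33 ± 0.36). Fgf17 fell from 32.27 and 33.88 FPKM to 1.75 and 1.13 (-3.82 ± 0.21). Cnpy1 (-0.63 ± 0.26) and Fgf18 (-0.60 ± 0.21) fell in the fit of all libraries but were not called without N2B27 replicate 2, at -0.17 (adjusted p = 0.563) and -0.34 (adjusted p = 0.23). Without ES replicate 1 Cnpy1 was not called (adjusted p = 0.16), and without ES replicate 2 neither was (adjusted p = 0.0779 and 0.0965).

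Of 20 forebrain factors listed, 6 reached the level for a member, 5 of them through N2B27 alone, and these 6 rose. Otx2, given above, was the highest of them at 94.85 and 82.62 FPKM in N2B27. Otx1 had 0.1 and 0.15 FPKM in ES cells and 35.05 and 20.65 in N2B27 (4.63 ± 0.31), and Sp8 had 0.06 and 0 FPKM in ES cells and 19.12 and 16.29 in N2B27 (4.18 ± 0.18). Lhx2, a LIM factor of the forebrain, reached 8.54 and 5.15 FPKM (2.56 ± 0.30). The other 14 genes listed, among them Emx1, Tbr1, Nkx2-1 and Dlx2, were under 1 FPKM in at least 1 N2B27 library and were no members.

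Of 13 hindbrain genes 7 were members and rose, 6 of them through N2B27 alone. Irx3, an Iroquois factor of the caudal neural plate, had 0.29 and 0.22 FPKM in ES cells and 52.74 and 56.94 in N2B27 (5.48 ± 0.23). Its neighbour Irx5 had 0.14 and 0.07 FPKM in ES cells and 47.54 and 52.92 in N2B27 (5.53 ± 0.21). Egr2 (Krox20), the factor of rhombomeres, reached 2.1 and 4.16 FPKM (1.94 ± 0.30), and Hoxa2, an anterior Hox gene, 2.48 and 4.02 FPKM (2.00 ± 0.33). Of 42 Hox and Cdx genes 5 were members, of which Hoxa2 and Hoxc13 rose and Hoxb9 and Cdx1 fell. Cdx1, a caudal factor of the posterior embryo, had 4.5 and 4.16 FPKM in ES cells and 0.03 and 0.06 in N2B27 (-2.35 ± 0.11). Hoxb9 had 1.97 and 2.08 FPKM in ES cells and 0.37 and 0.7 in N2B27 (-0.99 ± 0.13). Hoxc13 was at 0.79 and 0.59 FPKM in ES cells and 1.16 and 1.88 in N2B27 (0.56 ± 0.15) and was not called without N2B27 replicate 2 (0.36, adjusted p = 0.0609).

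Along the dorsoventral axis genes of the dorsal side were the higher. Pax7 had 0.01 and 0.04 FPKM in ES cells and 13.73 and 11.35 in N2B27 (3.72 ± 0.19), and Pax3 had 0.02 and 0 FPKM in ES cells and 11.66 and 10.89 in N2B27 (3.60 ± 0.34). Msx1 reached 27.28 and 20.63 FPKM (4.33 ± 0.35) and Msx3 12.51 and 14.43 FPKM (3.50 ± 0.28). These homeobox factors mark the dorsal neural tube and respond to BMP. All 7 dorsal members rose, 6 of them through N2B27 alone. Of 5 ventral members, 3 of them through N2B27 alone, 4 rose and 1 fell. Foxa2, the floor plate factor, which endoderm shares, reached 3.68 and 5.93 FPKM (2.18 ± 0.41), and Dbx1 reached 6.76 and 3.63 FPKM from 0 in both ES libraries. Nkx6-2 fell from 10.73 and 14.52 FPKM to 2.75 and 3.81 (-1.67 ± 0.19). Shh itself was no member, at 0.02 and 0 FPKM in ES cells and 0.99 and 1.31 in N2B27.

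**Figure D2:**
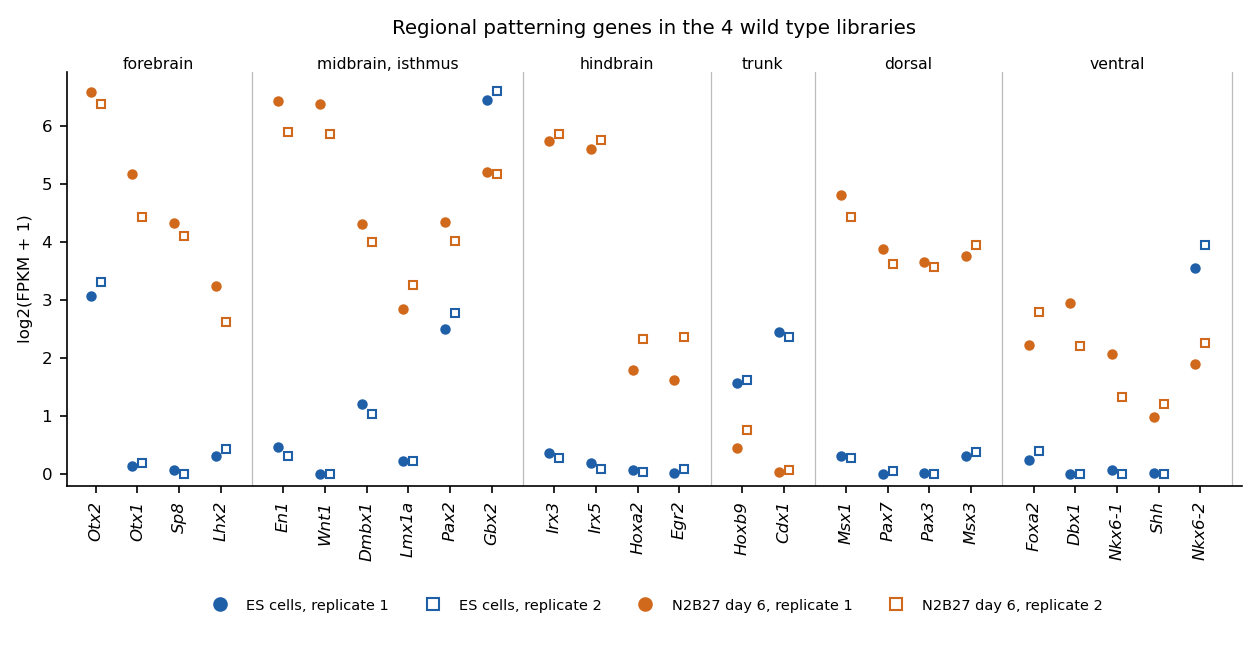
Level of 25 regional patterning genes as log2(FPKM + 1) in the 4 wild type libraries, grouped on the x axis by the region the gene marks; symbols as in the plot of pluripotency and neural genes. In N2B27 Otx2, En1, Wnt1, Irx3 and Irx5 lie highest, Pax3, Pax7, Msx1 and Msx3 lie above the ventral genes Foxa2, Dbx1, Nkx6-1 and Shh, and Hoxb9, Cdx1, Gbx2 and Nkx6-2 lie below their ES level.

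Families of patterning factors differed in how evenly they moved. All 11 Iroquois, MEIS and PBX members rose (median 2.95, 5 through N2B27 alone), as did all 5 PAX members (median 1.81, 3 through N2B27 alone). Of 14 SOX members 10 rose and 4 fell, 3 being members through N2B27 alone and 2 through ES cells alone. The 4 that fell were Sox2, Sox15 (-2.90 ± 0.15), Sox18 (-1.40 ± 0.20) and Sox7 (-0.78 ± 0.15). Of 21 KLF and SP members, 2 through N2B27 alone, 11 fell and 6 rose, the latter led by the WNT-responsive Sp5 (4.22 ± 0.44) and by Sp8. Of 26 FOX members, 8 through N2B27 alone and 4 through ES cells alone, 13 rose and 8 fell, from Foxb1 (4.66 ± 0.24) to Foxd3 (-3.92 ± 0.22), which both ES cells and neural crest use. The FOX shares, 50% and 30.8%, were near the 41.5% and 29.2% of all genes tested.

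The Hedgehog pathway showed a division between its targets and its coreceptors. Gli1, the target most used as a readout, had 31.37 and 35.32 FPKM in ES cells and 2.41 and 3.59 in N2B27 (-3.12 ± 0.23). Gli2 fell by 0.99 ± 0.08. Ptch1, the receptor that Hedgehog induces, was at 13.34 and 11.96 FPKM in ES cells and 6.69 and 7.77 in N2B27 (-0.73 ± 0.22), and was not called without N2B27 replicate 1 (-0.64, adjusted p = 0.0525). The coreceptors Gas1 (4.23 ± 0.20), Cdon (3.54 ± 0.26) and Boc (3.17 ± 0.17) rose, as did Gli3, whose protein acts mainly as a repressor (3.60 ± 0.15). Gli3 went from 1.76 and 1.35 FPKM to 30.11 and 29.63, so Gli3 was the highest of the 3 GLI genes in N2B27 and the lowest in ES cells. FPKM is a level per length, which allows this order. Of the 10 Hedgehog members 6 rose and 4 fell.

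Most WNT genes rose, whatever their role. Of 48 members 37 rose, 7 fell and 4 were not called, with a median of 2.13, and 20 were members through N2B27 alone. Among the ligands and their secretion, Wls, the carrier that WNT proteins need to leave the cell, had 0.88 and 1.02 FPKM in ES cells and 141.87 and 146.5 in N2B27 (6.22 ± 0.24). Wnt7b reached 15.27 and 12.93 FPKM (3.58 ± 0.18) and Wnt5a 9.96 and 11.31 FPKM (3.44 ± 0.15). Porcn, the acyltransferase that modifies WNT proteins, fell from 17.46 and 17.22 FPKM to 5.19 and 5.1 (-1.58 ± 0.14). Of the receptors Fzd2 rose from 2.95 and 2.2 FPKM to 46.46 and 42.6 (3.68 ± 0.13) and Fzd5 fell from 38.27 and 38.07 FPKM to 2.45 and 2.99 (-3.40 ± 0.12). The receptor set in N2B27 therefore differed from that in ES cells by more than the spread of the replicates. Rspo2, a secreted WNT enhancer, had 0.02 FPKM in both ES libraries and 12.29 and 12.43 in N2B27 (3.71 ± 0.24). Targets that report active signalling rose in 6 of 9 cases and fell in none. Axin2 went from 4.75 and 4.65 FPKM to 54.68 and 39.18 (3.05 ± 0.19), and Nkd1 from 0.65 and 0.52 FPKM to 39.8 and 28.73 (4.46 ± 0.20). Apcdd1, a target that inhibits the pathway, reached 105.21 and 76.05 FPKM (5.28 ± 0.31). For all 3 of these targets N2B27 replicate 1 was the higher.

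Notch genes rose with the neural genes. Of 22 members 16 rose, 1 fell (2 without N2B27 replicate 1) and 5 were not called, with a median of 1.30, and 6 were members through N2B27 alone. Dll1, the ligand made by newborn neurons, had 0.44 and 0.49 FPKM in ES cells and 27.49 and 23.23 in N2B27 (4.16 ± 0.28). Lfng, which modifies Notch receptors, rose from 1.04 and 1.17 FPKM to 18.07 and 22.57 (3.33 ± 0.19). Of the receptors Notch3 rose (2.12 ± 0.11), and Notch4 fell, from 5.85 and 6.17 FPKM to 0.59 and 0.46 (-2.20 ± 0.11). Hes5, the target that keeps progenitors undivided in fate, had 0 and 0.13 FPKM in ES cells and 19.55 and 11.82 in N2B27 (3.93 ± 0.22). Hes3 reached 28.65 and 13.58 FPKM (4.27 ± 0.36). Both HES genes were higher in replicate 1. Hes1, the most general Notch target, was not called (0.13).

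FGF genes changed in both directions. Fgf4, the main FGF of ES cells, had 56.09 and 53.32 FPKM there and 0.57 and 0.33 in N2B27. Spry4, a feedback inhibitor of the ERK pathway, fell from 63.03 and 56.31 FPKM to 1.61 and 1.98 (-4.44 ± 0.15), and Etv4 and Etv5, which ERK induces, fell as given above. In contrast Dusp4 rose (2.95 ± 0.15), as did Spry1 (0.86 ± 0.18), and Dusp6 was not called (-0.10). Of 5 receptor members 4 rose, with Fgfr1 at 25.83 and 26.88 FPKM in ES cells and 102.08 and 117.17 in N2B27 (2.01 ± 0.13). Of all 26 members, 5 through N2B27 alone and 3 through ES cells alone, 12 rose and 9 fell, with a median of 0.16 beside 0.12 over all genes tested.

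The Nodal branch fell and most of the BMP branch rose. Of 13 Nodal and activin members, 2 through N2B27 alone and 2 through ES cells alone, 9 fell and 4 rose, with a median of -2.62. Lefty2, a Nodal target and antagonist, had 25.26 and 17.42 FPKM in ES cells and 0.78 and 0.57 in N2B27 (-3.72 ± 0.27). Fst (follistatin), which binds activin, was among those that rose, from 0.45 and 0.58 FPKM to 23.44 and 49.5 (4.54 ± 0.45). Of 17 BMP members, 4 through N2B27 alone, 13 rose and 3 fell, with a median of 1.31. Bmp7 rose from 1.46 and 1.25 FPKM to 19.54 and 26.06 (3.32 ± 0.24) and the antagonist Nog from 0.12 and 0.03 FPKM to 9.12 and 8.95 (3.22 ± 0.42). Bmp4 fell from 33.24 and 28.8 FPKM to 2.76 and 4.18 (-2.86 ± 0.24). The other 2 that fell were Smad6 (-0.49 ± 0.13) and Id1 (-0.62 ± 0.18), and Id1 was not called without ES replicate 2 (-0.47, adjusted p = 0.0789) or N2B27 replicate 2 (-0.41, adjusted p = 0.096).

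Of 13 genes listed as binding, making or breaking down retinoids 6 were members, and all 6 rose, 1 of them through N2B27 alone. The other 7 were no members: Rbp4, Aldh1a1, Aldh1a2, Aldh1a3, Cyp26a1, Cyp26b1 and Cyp26c1. Crabp2, which carries retinoic acid to its receptors, had 1.36 and 1.57 FPKM in ES cells and 332.91 and 282 in N2B27 (6.96 ± 0.27). Of the receptors Rarg fell from 151.64 and 149.35 FPKM to 16.95 and 20.92 (-2.93 ± 0.11) and Rara by 1.85 ± 0.08, while Rxra rose by 1.11 ± 0.11.

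Proneural bHLH genes, which start neurogenesis, rose in 7 of 8 cases and fell in 1. Among the 8, 5 were members through N2B27 alone and 1 through ES cells alone, and 5 other listed genes were no members. Neurog1 had 0.1 and 0.03 FPKM in ES cells and 20.32 and 14.74 in N2B27 (4.11 ± 0.26). Sox11, which acts after them, had 1.28 and 1.14 FPKM in ES cells and 65.07 and 66.68 in N2B27 (4.92 ± 0.13). The replicates of each were close beside the gap between cultures. Of 28 neurogenic transcription factor members 26 rose, and 20 of the 28 were members through N2B27 alone. The 2 that fell were Pou4f2, a sensory neuron factor, from 8.44 and 9.68 FPKM to 0.19 and 0.05 (-3.17 ± 0.15), and Neurog3 (-1.28 ± 0.16).

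Genes of the neuronal cytoskeleton rose from unlike levels. Tubb3, the tubulin used as a neuron marker, was already at 110.63 and 125.63 FPKM in ES cells and had 333.24 and 358.41 in N2B27 (1.54 ± 0.26). Nefm, a neurofilament, had 0.47 and 0.32 FPKM in ES cells and 45.42 and 50.45 in N2B27 (5.13 ± 0.14), and Map2, of dendrites, had 0.73 and 0.64 FPKM in ES cells and 18.92 and 16.12 in N2B27 (3.45 ± 0.18). Dcx, a microtubule protein of migrating neurons, stayed low at 2.49 and 2 FPKM in N2B27 (1.69 ± 0.20). Of 38 members of this list, 8 through N2B27 alone, 27 rose, 4 fell and 7 were not called, with a median of 1.27. Those that fell were Nefh (-2.06 ± 0.14), Prph (-1.40 ± 0.17), Mapt (-1.18 ± 0.15) and Basp1 (-0.43 ± 0.16), all of which ES cells expressed, and Basp1 was not called without ES replicate 2 (-0.38, adjusted p = 0.121) or N2B27 replicate 1 (-0.37, adjusted p = 0.115).

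Most genes of mature neurons were below the level for a member. Of 49 synapse, channel and transmitter genes 22 were members, 9 through N2B27 alone and 2 through ES cells alone, of which 15 rose and 5 fell. Cplx2, a vesicle release regulator, had the largest increase, from 0.34 and 0.52 FPKM to 11.58 and 11.95 (3.16 ± 0.16). Of 13 genes for making and loading transmitters 2 were members and both fell, Ddc from 11.11 and 12.36 FPKM to 0.74 and 0.68 (-2.90 ± 0.18) and Slc17a7 from 2.2 and 1.87 FPKM to 0.59 and 0.48 (-0.98 ± 0.14). Th, the dopaminergic enzyme, had 0.1 and 0 FPKM in N2B27, and Slc17a6, the glutamate transporter of vesicles, 0.38 and 0.27. The astrocyte gene Gfap had 0.08 and 0.04 FPKM in N2B27 and the oligodendrocyte factors Olig2 and Sox10 stayed under 1 FPKM. Of 20 glial genes 10 were members, 6 of them through N2B27 alone. Among the 10, 6 rose, 2 fell (Cnp and Slc1a3) and 2 were not called (Aldh1l1 and Aldoc). In the oligodendrocyte lineage Mbp rose from 0.28 FPKM in both ES libraries to 9.63 and 10.34 (3.10 ± 0.23), while Cnp fell (-1.07).

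Axon guidance genes, many of which also act on progenitors, rose in 36 of 41 cases and fell in 3, with a median of 1.46, and 17 were members through N2B27 alone. Efna5, an ephrin, had 0.11 FPKM in both ES libraries and 41.4 and 41.07 in N2B27 (5.25 ± 0.23). Nrp2, a semaphorin receptor, rose from 1.3 and 1.14 FPKM to 24.35 and 33.41 (3.73 ± 0.20). Epha2 fell from 71.33 and 73.55 FPKM to 5.79 and 7.36 (-3.28 ± 0.16), and the semaphorins Sema5b (-0.85 ± 0.18) and Sema4d (-0.69 ± 0.13) fell less. Among 26 protocadherin members 24 rose, 17 of the 26 through N2B27 alone. Pcdhgc3, of the gamma cluster, had 5.2 and 6.04 FPKM in ES cells and 61.44 and 53.23 in N2B27 (3.14 ± 0.12). Most of the clustered genes, 39 of 58, were no members. Exons of the clusters are shared between genes, so how the authors' estimation divided their fragments bears on these values. Of 36 cilium members 27 rose and 4 fell, led by the ciliary factor Rfx4 from 0.28 and 0.37 FPKM to 24.86 and 18.89 (4.10 ± 0.24).

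The cadherins exchanged their order. Cdh2 (N-cadherin) had 0.43 and 0.36 FPKM in ES cells and 83.09 and 80.04 in N2B27 (5.89 ± 0.19), and Cdh1 (E-cadherin) had 70.19 and 60.34 FPKM in ES cells and 28.96 and 46.68 in N2B27 (-0.81 ± 0.19, adjusted p = 0.00149). Cdh2 was 0.609% and 0.593% of the sum of both in ES cells and 74.2% and 63.2% in N2B27. The TET genes also exchanged their order. Tet3 went from 4.22% and 5.2% of Tet1 plus Tet3 to 71.2% and 71.6%, as Tet1 fell from 38.8 and 29.72 FPKM to 3.51 and 3.62 (-2.94 ± 0.13) and Tet3 rose from 1.71 and 1.63 FPKM to 8.66 and 9.13 (1.89 ± 0.13). Crabp2 went from 5.9% and 6.04% of the pair with Crabp1 to 64.1% and 66.1%, while Crabp1 rose as well (2.78 ± 0.30). Mycn went from 42.1% and 40.7% of Myc plus Mycn to 78.3% and 75.8%. The neural splicing factor Ptbp2 went from 2.64% and 2.06% of the pair with Ptbp1 to 11.7% and 11.6%, so Ptbp1 remained the larger. In all of these pairs both N2B27 libraries were above both ES libraries.

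**Figure D3:**
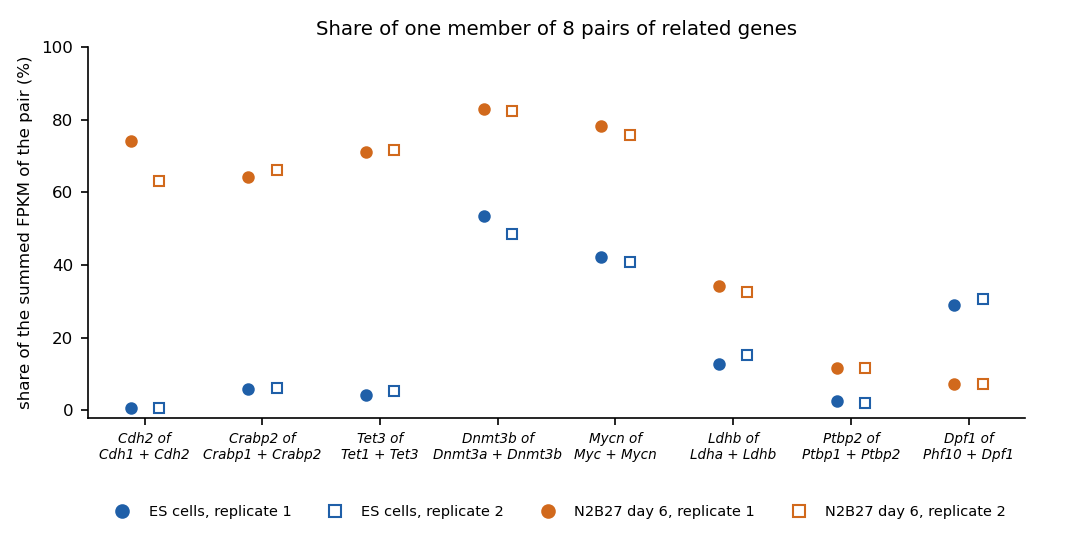
Share, in percent, of the second gene in the summed FPKM of 8 pairs of related genes in each wild type library; symbols as in the plot of pluripotency and neural genes. The shares of Cdh2, Crabp2, Tet3, Dnmt3b, Mycn, Ldhb and Ptbp2 are higher in both N2B27 libraries than in both ES libraries, and that of Dpf1 is lower (29.1% and 30.6% in ES cells, 7.24% and 7.2% in N2B27).

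Genes of the actin cytoskeleton and matrix rose as well, and differed between the N2B27 replicates. Tagln, an actin-binding protein of smooth muscle and of spread cells, had 1.67 and 1.75 FPKM in ES cells and 96.32 and 209.82 in N2B27 (5.72 ± 0.30). Acta2, smooth muscle actin, had 0.11 and 0.09 FPKM in ES cells and 23.24 and 48.71 in N2B27 (4.98 ± 0.49). Thbs1, a matrix glycoprotein, had 0.32 and 0.11 FPKM in ES cells and 80.91 and 140.79 in N2B27 (6.48 ± 0.32). Replicate 2 was the higher for all 3 in N2B27, and both replicates were above both ES libraries. All 13 contractile members rose (median 3.39, 3 through N2B27 alone). Of 24 matrix members, 9 through N2B27 alone, 17 rose and 3 fell (5 without N2B27 replicate 2). Basement membrane genes were on both sides: Col4a1 rose from 8.78 and 8.54 FPKM to 103.72 and 175.02 (3.81 ± 0.35), while Nid1 fell from 27.23 and 26.5 FPKM to 5.24 and 7.95 (-1.90 ± 0.20). The summed FPKM of 7 fibroblast and smooth muscle markers was 3.7 and 3.83 in ES cells and 123 and 263 in N2B27, with Lum at 0. It was carried by Tagln and Acta2, given above. Col1a1 had 1.39 and 2.59 FPKM in N2B27, and Col3a1 and Dcn were no members. Pdgfrb fell, from 1.61 and 1.68 FPKM to 0.38 and 0.37. The summed FPKM of 5 surface epithelium markers was 16.7 and 20.4 in ES cells and 142 and 227 in N2B27. It was carried by Krt18 (105.15 and 175.65 FPKM), while Krt5, Krt14 and Trp63 stayed under 1 FPKM. Their part in the increase of the matrix and contractile genes was not tested.

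Markers of other lineages had lower sums in N2B27 than the neural progenitor markers. The summed FPKM of 7 mesoderm and cardiac markers was 2.33 and 1.82 in ES cells and 10.4 and 15.5 in N2B27, most of it T (Brachyury), which had 7.03 and 10.5 FPKM in N2B27. That of 7 endoderm markers went from 1.94 and 1.89 to 18.7 and 30.3, with Gata4 (2.63 ± 0.31), Sox17 (2.75 ± 0.34) and Foxa2 among them and Afp at 0. In wild type embryoid bodies the endoderm sum was 39.3 and 27.1. The summed FPKM of 7 blood and endothelium markers went from 15.8 and 14.4 to 7.38 and 5.71. Of these Pecam1 fell, from 14.41 and 13.51 FPKM to 0.42 and 0.24. Kdr, at 2.96 and 2.4 FPKM in N2B27, and Hba-x, at 2.3 and 2.04, rose. For 4 trophoblast markers the sum went from 0.18 and 0.2 to 1.28 and 2.57, with Tpbpa at 0. Of 7 neural crest markers, at 30.7 and 36.6 in ES cells and 32.4 and 31.9 in N2B27, the composition changed: Foxd3 made up most in ES cells and Tfap2b, at 19.32 and 17.67 FPKM, in N2B27, while Sox10 stayed under 1 FPKM. Of the crest list of 15 members 11 rose and 3 fell, 10 of the 15 through N2B27 alone. The part of cells of these lineages in other results was not tested.

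Insulin-like growth factor genes and imprinted genes held several of the largest increases. Igfbp5, which binds IGFs, had 0.05 and 0.15 FPKM in ES cells and 149.96 and 199.86 in N2B27 (7.31 ± 0.29, adjusted p = 4.68e-11), the largest log2 increase among the members called. Igf2, the imprinted fetal growth factor, had 1.26 and 1.27 FPKM in ES cells and 178.65 and 243.55 in N2B27 (6.53 ± 0.44). Mest had 64.68 and 60.12 FPKM in ES cells and 956.21 and 826.48 in N2B27 (3.81 ± 0.31), and Peg12 had 0.79 and 0.66 FPKM in ES cells and 30.63 and 20.27 in N2B27 (3.91 ± 0.24). These 3 are expressed from the paternal allele. Of 17 paternally expressed members, 3 through N2B27 alone, 14 rose and none fell, with a median of 2.20. Of 7 maternally expressed members 2 rose (Cdkn1c, 1.99 ± 0.32, and Igf2r, 0.88 ± 0.18), 4 were not called and 1 fell. That one was Phlda2, which restrains placental growth, from 126.18 and 124.56 FPKM to 5.77 and 6.36 (-4.16 ± 0.14). Of 8 fetal RNA-binding and HMGA genes 5 rose, Hmga1 fell (-0.62) and Igf2bp1 (-0.08) and Trim71 (-0.10) were not called. Those that rose were, beside Lin28a, Lin28b (2.15 ± 0.12), Igf2bp2 (1.65 ± 0.15), Igf2bp3 (adjusted p = 1.76e-10) and the chromatin gene Hmga2 (2.81 ± 0.24).

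Genes of ribosome production fell by small and even amounts. Of 83 ribosome biogenesis members 70 fell, none rose and 13 were not called, with a median of -0.67, and 16 fell at least 2-fold. Znrd1, an RNA polymerase I subunit, had 92.5 and 107.73 FPKM in ES cells and 36.64 and 36.9 in N2B27 (-1.42 ± 0.14). Nop10, of the H/ACA particles that modify ribosomal RNA, had 156.72 and 185.46 FPKM in ES cells and 66.91 and 62.06 in N2B27 (-1.39 ± 0.16). Heatr1, which acts in early processing, fell from 50.75 and 45.06 FPKM to 21.44 and 18.95 (-1.21 ± 0.13). With median-ratio scaling 78 of the 83 fell and none rose, and with TPM scaling 68 fell and 2 rose. All 10 enzymes and cofactors of ribosomal RNA methylation fell (median -0.76). Mettl5, the gene knocked out in the study's other lines, had 20.85 and 19.03 FPKM in ES cells and 8.37 and 8.65 in N2B27 (-1.14 ± 0.25, adjusted p = 0.000915) and was the one of these 10 that fell at least 2-fold. Its cofactor Trmt112 fell least, from 109.29 and 128.35 FPKM to 95.42 and 84.25 (-0.40 ± 0.12), and was not called without ES replicate 2 (-0.28, adjusted p = 0.106) or N2B27 replicate 2 (-0.31, adjusted p = 0.0843).

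Ribosomal protein genes, which are among the most abundant transcripts, fell less. Of 86 members 39 fell and 1 rose, with a median of -0.27 beside 0.12 over all genes tested. Without ES replicate 2 the count that fell was 21, and with median-ratio scaling 62. The large declines, by at least 2-fold in 3 members, were those of tissue-specific paralogues. There were also 3 members through ES cells alone, Rpl10l and Rpl39l among them, and these had to differ by the rule that chose them. Rpl10l, known from testis, had 25.02 and 18.73 FPKM in ES cells and 0.66 and 0.2 in N2B27 (adjusted p = 1.34e-10), and Rpl39l had 12.71 and 13.28 FPKM in ES cells and 0 and 0.29 in N2B27 (-3.62 ± 0.25). Rps19 was the member that rose (0.26 ± 0.10) and was not called with median-ratio scaling (0.11, adjusted p = 0.364), without ES replicate 1 (0.17, adjusted p = 0.214) or without N2B27 replicate 1 (0.18, adjusted p = 0.185). Processed pseudogenes and near-identical copies share reads with many of these genes, so single values are uncertain. Of 54 translation factor members 34 fell and 6 rose. Those that rose most were paralogues outside the core set: Eif4e3 (1.84 ± 0.15), Eif4g3 (1.67 ± 0.10) and Eif1b (1.51 ± 0.11). Eif2s2, a subunit of the initiator complex, fell from 248.87 and 227.88 FPKM to 107.15 and 122.03 (-1.05 ± 0.12).

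The MYC genes, which drive growth, changed in unlike ways. Myc had 66.39 and 71.36 FPKM in ES cells and 20.84 and 23.63 in N2B27 (-1.59 ± 0.17, adjusted p = 9.34e-07). Mycl had 4.86 and 4.67 FPKM in ES cells and 35.54 and 30.09 in N2B27 (2.55 ± 0.13). Mycn, the MYC gene of neural progenitors, had 48.32 and 48.98 FPKM in ES cells and 75.23 and 73.92 in N2B27 (0.61 ± 0.22, adjusted p = 0.0237). It was not called after median-ratio scaling (0.45, adjusted p = 0.0847) or without any one of the 4 libraries (0.59 to 0.62, adjusted p = 0.0685 to 0.0806). Mxd4, a MAX partner that opposes MYC, rose from 2.36 and 2.65 FPKM to 19.14 and 19.52 (2.54 ± 0.12). Of 40 MYC-regulated growth genes 31 fell and 2 rose, with a median of -0.54, and the 2 that rose were Cdk4 (0.52 ± 0.11) and Cad (0.29 ± 0.09). Cad was not called after median-ratio scaling (0.13, adjusted p = 0.229), without ES replicate 1 (0.27, adjusted p = 0.0639) or without N2B27 replicate 1 (0.20, adjusted p = 0.127).

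Of the 35 glycolysis members 13 fell, 7 rose and 15 were not called, and those that fell included enzymes of the first and last steps. Pfkp, a phosphofructokinase, had 35.2 and 32.35 FPKM in ES cells and 2.25 and 2.36 in N2B27 (-3.39 ± 0.23). Hk2, a hexokinase, fell from 60 and 55.52 FPKM to 16.17 and 18.65 (-1.68 ± 0.19), and Ldha, lactate dehydrogenase, from 713.97 and 706.47 FPKM to 181.2 and 195.5 (-1.91 ± 0.14). Pdk1, which restrains the use of pyruvate in the mitochondria, had 43.19 and 38.23 FPKM in ES cells and 3.8 and 3.43 in N2B27 (-3.17 ± 0.17). Middle steps such as Gapdh, Pgk1 and Tpi1 were not called (-0.30, -0.14 and 0.07). Neither were the glucose transporters Slc2a1 and Slc2a3, the early enzymes Gpi1 and Pfkl or the lactate transporter Slc16a3. In all 10 of 22 transport and enzyme genes fell, 2 rose and 10 were not called. Genes of oxidative phosphorylation did not rise in place of the glycolysis genes that fell. Of 89 nuclear-encoded members 50 fell and 6 rose, with a median of -0.32, and without ES replicate 2 the count that fell was 33. Atp5g1, of the ATP synthase ring, had 364.56 and 409.58 FPKM in ES cells and 170.13 and 153.51 in N2B27 (-1.25 ± 0.11). Without N2B27 replicate 1 the count that rose was 3. Cox6b2, a cytochrome oxidase subunit known from testis, rose by 1.84 ± 0.26.

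Sterol synthesis genes rose along most of the pathway. Of 20 cholesterol enzymes 19 rose and 1, Ebp, was not called (0.05), with a median of 1.45. Hmgcs1, the synthase that makes HMG-CoA, had 44.79 and 41.25 FPKM in ES cells and 245.3 and 270.67 in N2B27 (2.56 ± 0.14, adjusted p = 8.14e-10). Cyp51, which demethylates lanosterol, had 11.38 and 9.31 FPKM in ES cells and 58.39 and 57.94 in N2B27 (2.39 ± 0.11). These enzymes were separated between cultures by far more than between replicates. The feedback gene Insig1 (1.93 ± 0.12), which the SREBP factors also induce, rose, and the cholesterol exporter Abcg1 fell (-0.73 ± 0.17). Of 12 fatty acid enzymes 9 rose, with Fads2, a desaturase, from 20.19 and 20.09 FPKM to 94.94 and 67.44 (1.94 ± 0.14). The medium changed together with differentiation, and the parts of both in these values cannot be told apart.

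The promoters of Hmgcs1 and Cyp51 are shown because sterol genes moved together and are known targets of SREBP and its partner NF-Y, which binds CCAAT. They run from 250 bases before to 50 after the start, taken from RefSeq on GRCm38.p6, and the capitals mark TCACNCCAC, a sterol response element, and CCAAT, each searched on both strands, where CCAAT on the other strand reads ATTGG. They lie at chr13:119690101-119690400 (plus strand) and chr5:4104648-4104947 (minus strand).
Hmgcs1: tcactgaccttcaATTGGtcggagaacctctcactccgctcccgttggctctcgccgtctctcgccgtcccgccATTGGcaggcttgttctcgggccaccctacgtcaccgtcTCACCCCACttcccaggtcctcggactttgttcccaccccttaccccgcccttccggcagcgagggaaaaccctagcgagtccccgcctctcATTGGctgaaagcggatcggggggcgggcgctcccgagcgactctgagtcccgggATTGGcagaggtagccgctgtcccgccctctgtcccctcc
Cyp51: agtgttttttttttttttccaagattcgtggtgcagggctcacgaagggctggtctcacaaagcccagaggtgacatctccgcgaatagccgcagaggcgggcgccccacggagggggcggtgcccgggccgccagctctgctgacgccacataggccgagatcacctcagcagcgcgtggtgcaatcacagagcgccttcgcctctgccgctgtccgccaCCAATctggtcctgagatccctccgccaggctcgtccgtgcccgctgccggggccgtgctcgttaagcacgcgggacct
The Hmgcs1 promoter held 4 CCAAT boxes on the other strand and 1 sterol element, and the Cyp51 promoter 1 CCAAT box. CCAAT stood in 24 of the 32 sterol and fatty acid promoters in the table (75%), of which 19 rose and none fell, and in 39.6% of the promoters of all 9785 members that had one. The sterol element stood in 1 of the 32 and in 1.03% of all. Of the 45 members of the sterol and fatty acid list, with or without a motif, 36 rose (80%) and 2 fell. CCAAT was also in 75% of the 20 neural progenitor promoters and in 37.3% of the 75 ribosome biogenesis promoters. A match describes these letters and is not a site or a cause. In all 19 motifs were searched, and the promoters and motifs shown were chosen after the values had been seen.

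**Figure D4:**
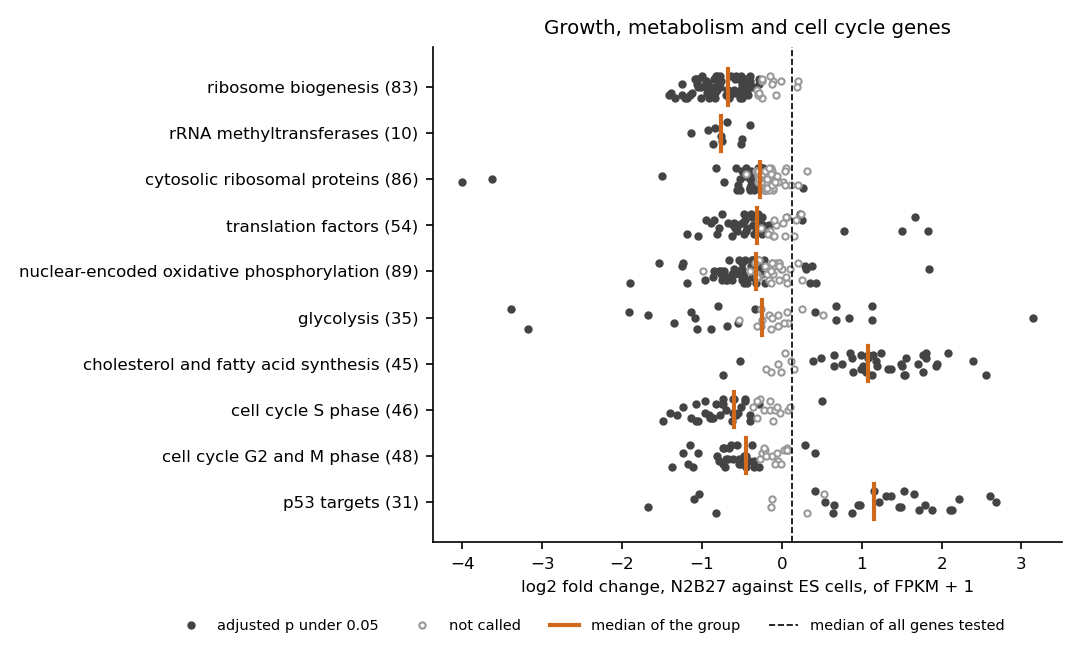
Log2 fold change of FPKM + 1 from ES cells to N2B27 of each member of 10 groups; each point is 1 gene, filled where the adjusted p is under 0.05, the orange bar is the median of the group and the dashed line the median of all genes tested (0.12). The medians of the growth, respiration and cell cycle groups lie between -0.76 and -0.25, and those of sterol synthesis and of p53 targets at 1.08 and 1.16.

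Most genes of S phase and mitosis fell by modest amounts. In a group of CDK inhibitors, RB family genes and E2F factors 9 of 17 members rose, 5 fell and 3 were not called. The largest declines in this group were those of the E2F genes E2f8, E2f2, E2f4 and E2f1, while E2f6 rose. Cdkn1a (p21), the CDK inhibitor that p53 induces, had 31.09 and 31.42 FPKM in ES cells and 193.55 and 196.98 in N2B27 (2.61 ± 0.12). Ccne1, the cyclin of the start of S phase that is high in ES cells, fell from 133.38 and 142.53 FPKM to 39.34 and 30.95 (-1.95 ± 0.14). The D cyclins moved apart: Ccnd3 fell from 253.1 and 275.57 FPKM to 88.61 and 96.85 (-1.50 ± 0.15), Ccnd2 rose from 14.64 and 13.13 FPKM to 68.47 and 75.1 (2.29 ± 0.17) and Ccnd1 was not called (0.03). Ccnd3 stayed above Ccnd2 in both N2B27 libraries. Rb1, which restrains E2F factors, rose by 1.43 ± 0.15. Of 46 S phase members 32 fell and 1 rose (median -0.60), with Orc1, of the origin complex, from 25.41 and 24.86 FPKM to 8.98 and 8.91 (-1.39 ± 0.09). The one that rose, Rfc3 (0.50 ± 0.17), was not called after median-ratio scaling (0.35, adjusted p = 0.083), without ES replicate 1 (0.44, adjusted p = 0.0874) or without N2B27 replicate 1 (0.26, adjusted p = 0.226). Of 48 G2 and M phase members 31 fell and 2 rose (median -0.45), with 6 falling at least 2-fold. Espl1 (separase) fell from 37.23 and 36.02 FPKM to 14.95 and 12.29 (-1.37 ± 0.10), and the proliferation marker Mki67 was not called, at 26.63 and 19.61 FPKM in ES cells and 25.96 and 19.65 in N2B27 (-0.02 ± 0.15). Ckap2 (0.41 ± 0.11) and Kif4 (0.30 ± 0.11) rose, and Kif4 was not called after median-ratio scaling (0.15, adjusted p = 0.203), without ES replicate 2 (0.23, adjusted p = 0.154) or without N2B27 replicate 1 (0.22, adjusted p = 0.157).

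The promoters of 3 mitotic genes are shown because genes of this list share an element, TTTGAA, called the cell cycle genes homology region, through which the DREAM complex represses them, together with CCAAT. Capitals mark TTTGAA and CCAAT on either strand, where the other strand reads TTCAAA and ATTGG. They lie at chr7:122159185-122159484 (Plk1, plus strand), chr4:118437294-118437593 (Cdc20, minus strand) and chr2:164769679-164769978 (Ube2c, plus strand), from the same RefSeq table and build.
Plk1: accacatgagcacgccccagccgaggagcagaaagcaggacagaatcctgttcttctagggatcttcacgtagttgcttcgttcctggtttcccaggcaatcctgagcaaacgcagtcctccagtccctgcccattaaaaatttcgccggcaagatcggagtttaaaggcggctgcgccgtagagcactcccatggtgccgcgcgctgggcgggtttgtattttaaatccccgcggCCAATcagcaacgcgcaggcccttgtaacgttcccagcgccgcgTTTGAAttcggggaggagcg
Cdc20: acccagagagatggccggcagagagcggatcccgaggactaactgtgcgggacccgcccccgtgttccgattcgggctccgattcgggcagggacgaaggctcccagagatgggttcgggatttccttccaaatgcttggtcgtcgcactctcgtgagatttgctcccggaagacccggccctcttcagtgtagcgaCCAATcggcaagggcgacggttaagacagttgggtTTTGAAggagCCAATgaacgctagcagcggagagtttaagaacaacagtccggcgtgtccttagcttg
Ube2c: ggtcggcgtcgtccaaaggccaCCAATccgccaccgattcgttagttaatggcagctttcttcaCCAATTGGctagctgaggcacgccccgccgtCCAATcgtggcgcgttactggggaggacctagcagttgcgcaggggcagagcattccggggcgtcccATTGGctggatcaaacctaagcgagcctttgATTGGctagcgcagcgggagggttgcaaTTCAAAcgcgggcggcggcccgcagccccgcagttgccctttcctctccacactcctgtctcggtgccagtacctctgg
Plk1, the mitotic kinase, had 115.18 and 123.89 FPKM in ES cells and 84.49 and 76.99 in N2B27 (-0.56 ± 0.09). Cdc20, which activates the anaphase-promoting complex, had 154.27 and 172.61 FPKM in ES cells and 125.51 and 114.19 in N2B27 (-0.44 ± 0.11). Ube2c, an enzyme of the same complex, had 321.14 and 334.06 FPKM in ES cells and 204.33 and 175.06 in N2B27 (-0.79 ± 0.12). All 3 were lower in both N2B27 libraries. TTTGAA stood in 32 of the 43 G2 and M phase promoters in the table (74.4%), of which 23 fell and 2 rose, and in 11.4% of the promoters of all members. CCAAT stood in 74.4% of the 43. Of the 48 members of the G2 and M phase list, with or without a motif, 31 fell (64.6%) and 2 rose. Among members that rose at least 2-fold TTTGAA stood in 8.45%, and among those that fell at least 2-fold in 12.5%.

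Targets of p53, the factor that answers DNA damage and other stress, rose in 23 of 31 cases and fell in 4, with a median of 1.16. Ccng1 had 57.18 and 48.33 FPKM in ES cells and 280.04 and 219.82 in N2B27 (2.22 ± 0.19), Plk2 had 10.03 and 10.66 FPKM in ES cells and 46.69 and 50.92 in N2B27 (2.13 ± 0.11), and Btg2, which slows the cycle of neurogenic progenitors, had 9.77 and 10.8 FPKM in ES cells and 63.78 and 79.84 in N2B27 (2.68 ± 0.11). The 4 that fell were Trp53 itself, from 410.23 and 452.67 FPKM to 254.47 and 232.55 (-0.82 ± 0.12), the apoptosis gene Pmaip1 (-1.67 ± 0.17), Sesn1 (-1.10 ± 0.09) and Tigar (-1.03 ± 0.16). Several of these genes, Cdkn1a and Btg2 among them, are also controlled by other factors.

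Genes of chromatin complexes changed in both directions. Of 26 Polycomb members 12 fell and 10 rose. Bmi1, a PRC1 subunit of neural stem cells, had 1.55 and 1.01 FPKM in ES cells and 20.3 and 21.42 in N2B27 (3.27 ± 0.19), and Phc2 had 16.19 and 17.42 FPKM in ES cells and 127.47 and 125.13 in N2B27 (2.84 ± 0.09). In the other direction Cbx7, the chromodomain subunit of ES cells, fell from 72.44 and 68.2 FPKM to 11.52 and 10.47 (-2.57 ± 0.11), and Phc1 from 126.68 and 124.72 FPKM to 37.44 and 33.6 (-1.80 ± 0.11). Ezh2, the H3K27 methyltransferase, was not called (0.15 ± 0.10). In the BAF remodelling complex 12 of 23 members rose (52.2%) and 6 fell (26.1%), beside 41.5% and 29.2% of all genes tested. Smarca2 (Brm), one of its 2 ATPases, had 0.28 and 0.11 FPKM in ES cells and 14.33 and 12.1 in N2B27 (3.57 ± 0.16), and Dpf1 fell from 14.37 and 14.19 FPKM to 3.77 and 3.73 (-1.69 ± 0.09). Actl6b, the subunit of neuronal BAF, was under 1 FPKM and no member. Among DNA methylation genes Dnmt3l fell from 52.84 and 39.04 FPKM to 1.17 and 0.64 (-4.62 ± 0.20), and Zfp57, which protects imprints, from 221.57 and 219.13 FPKM to 25.08 and 28.02 (-3.01 ± 0.13).

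Of 25 neural and epithelial splicing regulators, 7 of them members through N2B27 alone, 17 rose and 2 fell, the epithelial Esrp2 (-0.67) and Ptbp1. Esrp2 was not called without ES replicate 1 (-0.65, adjusted p = 0.0571) or N2B27 replicate 1 (-0.51, adjusted p = 0.111). Srrm4, which drives neural microexons, had 0.05 and 0.13 FPKM in ES cells and 6.47 and 6.13 in N2B27 (2.74 ± 0.20), and Nova2 had 1.27 and 1.21 FPKM in ES cells and 10.59 and 8.98 in N2B27 (2.26 ± 0.12). Ptbp2 rose from 10.83 and 8.45 FPKM to 46.88 and 45.73 (2.16 ± 0.13), while its paralogue Ptbp1, which represses it in other cells, was at 398.98 and 401.83 FPKM in ES cells and 355.08 and 347.51 in N2B27 (-0.19 ± 0.07, adjusted p = 0.0359). Ptbp1 was not called with a block for the line (-0.19, adjusted p = 0.0509), with TPM scaling (-0.09, adjusted p = 0.221) or without any one of the 4 libraries (-0.17 to -0.20, adjusted p = 0.0722 to 0.124). The enzymes and readers of m6A on messenger RNA had fold changes between -0.60 (Mettl16) and 0.72 (Rbm15b) on the log2 scale.

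Germline genes, a set of which ES cells express, fell in 14 of 18 cases and none rose, with a median of -1.84; 9 of the 18 were members through ES cells alone. Syce1, of the synaptonemal complex, had 17.08 and 16.18 FPKM in ES cells and 0.46 and 0.42 in N2B27 (-3.61 ± 0.11). Dazl, a germ cell RNA-binding gene, had 5.67 and 4.31 FPKM in ES cells and 0.11 and 0.04 in N2B27 (-2.47 ± 0.18). Many germline promoters carry the E-box CACGTG, which MGA and E2F6 complexes bind to keep these genes silent, and 3 of them are shown with it in capitals. They lie at chr13:112652261-112652560 (Ddx4, minus strand), chr1:166238695-166238994 (Mael, minus strand) and chr6:49395289-49395588 (Stk31, plus strand).
Ddx4: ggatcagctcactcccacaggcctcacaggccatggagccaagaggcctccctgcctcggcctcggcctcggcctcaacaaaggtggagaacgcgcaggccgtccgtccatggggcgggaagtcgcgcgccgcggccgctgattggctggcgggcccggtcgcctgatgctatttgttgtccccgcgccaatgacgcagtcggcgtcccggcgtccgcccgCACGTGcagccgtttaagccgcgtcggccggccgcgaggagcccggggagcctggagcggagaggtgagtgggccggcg
Mael: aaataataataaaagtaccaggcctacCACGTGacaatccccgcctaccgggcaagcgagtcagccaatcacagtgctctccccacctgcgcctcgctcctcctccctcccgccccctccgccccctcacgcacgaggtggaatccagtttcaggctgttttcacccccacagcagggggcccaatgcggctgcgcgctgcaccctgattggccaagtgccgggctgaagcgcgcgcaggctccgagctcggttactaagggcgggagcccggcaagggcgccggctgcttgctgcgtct
Stk31: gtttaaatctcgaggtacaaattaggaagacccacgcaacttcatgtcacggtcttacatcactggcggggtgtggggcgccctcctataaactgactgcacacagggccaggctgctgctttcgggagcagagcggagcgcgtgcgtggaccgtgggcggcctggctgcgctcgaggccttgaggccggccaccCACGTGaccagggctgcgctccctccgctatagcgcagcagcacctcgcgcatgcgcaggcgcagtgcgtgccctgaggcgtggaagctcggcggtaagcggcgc
Ddx4 (Vasa), a helicase of the piRNA pathway, had 8.41 and 7.18 FPKM in ES cells and 1.2 and 2.04 in N2B27 (-1.76 ± 0.17). Mael, of the same pathway, had 6.36 and 6.24 FPKM in ES cells and 0.61 and 1.35 in N2B27 (-1.91 ± 0.18), and Stk31 had 2.93 and 2.63 FPKM in ES cells and 0.12 and 0.39 in N2B27 (-1.60 ± 0.13). All 3 were lower in both N2B27 libraries, and replicate 2 was the higher of these. CACGTG, which reads the same on both strands, stood in 9 of the 17 germline promoters in the table (52.9%), of which 6 fell and none rose, and in 10.5% of the promoters of all members. Of all 18 germline members, with or without the motif, 14 fell (77.8%). E2f6 rose from 7.44 and 7.63 FPKM to 29.49 and 32.12 (1.90 ± 0.12), and Mga was not called (-0.09). A part of these factors in the fall of the germline genes was not tested.

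Genes of the rare two-cell-like state of ES cultures fell, and differed between the ES replicates. Zscan4c had 13.86 and 4.46 FPKM in ES cells and 0.1 and 0.28 in N2B27 (-2.92 ± 0.40), and Zscan4f 28.22 and 7.63 FPKM in ES cells and 2.21 and 0.13 in N2B27 (-3.06 ± 0.51). The members of this family are near-identical, so their separate values are uncertain.

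Many neural genes, though not most of every neural list, were higher in N2B27 than in the other day 6 culture. In the direct test of wild type N2B27 against wild type embryoid bodies 31.2% of all genes tested were higher in N2B27 and 25.3% lower. The change of each culture from ES cells uses the same ES libraries, so the values of both are given side by side without a test of one against the other. Neurog1 had 20.32 and 14.74 FPKM in N2B27 and 0.14 and 0.31 in embryoid bodies (3.91 ± 0.26), and Tubb3 had 333.24 and 358.41 FPKM in N2B27 and 15.11 and 27.94 in embryoid bodies (adjusted p = 3.27e-08), below the ES libraries. Prdm12, a factor of sensory neuron precursors, led them, with 32.35 and 32.58 FPKM in N2B27 and 0.07 in both embryoid body libraries (4.97 ± 0.23). Otx2, at 90.26 and 91.34 FPKM in embryoid bodies, was not called (-0.04 ± 0.26, adjusted p = 0.912). Zic2, at 97.27 and 95.07 FPKM in embryoid bodies, was not called either (0.13 ± 0.13, adjusted p = 0.396). Of the 30 neural progenitor genes 24 were higher in N2B27 and 3 lower, of 31 neurogenic factors fitted 26 and 2, and of 38 cytoskeletal and RNA-binding genes of neurons 32 and none. In contrast 4 of 12 forebrain genes fitted were higher in N2B27 and 4 lower. Among 28 synapse, channel and transmitter genes fitted 12 were higher and 6 lower. Of 25 mesoderm genes fitted 18 were lower in N2B27 and 3 higher, and all 10 primitive streak genes were lower, such as T, at 61.22 and 44.23 FPKM in embryoid bodies. Of 14 endoderm genes fitted 6 were lower in N2B27 and 2 higher. Naive genes were lower in N2B27 in 20 of 24 cases, with Zfp42 at 74.45 and 82.2 FPKM in embryoid bodies (-4.32 ± 0.22). Of 35 glycolysis members 22 were lower in N2B27, with Ldha at 1329.95 and 1072.08 FPKM in embryoid bodies (-2.66 ± 0.14). Ribosomal protein genes were lower in 77 of 87 cases with a median of -0.66, while ribosome biogenesis genes were lower in 39 of 83. Contractile genes were higher in 4 of 14 cases and lower in none, with Tagln at 90.79 and 105.62 FPKM in embryoid bodies (0.53 ± 0.30, adjusted p = 0.148).

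The test of whether the change from ES cells to N2B27 differed between Mettl5-/- and wild type cells called 0.00773% of the genes tested lower and 0.0% higher, that is 1 and 0 of 12929 genes by limma, with 379 lower and 241 higher at an unadjusted p under 0.05. The gene called was Fhl1, a LIM protein gene on chromosome X, which rose less in Mettl5-/- cells (-1.02 ± 0.14, adjusted p = 0.0442). It was not called in every setting tried. In wild type cells Fhl1 had 10.27 and 9.36 FPKM as ES cells and 82.16 and 73.5 in N2B27 (2.86 ± 0.11), and the 3 Mettl5-/- libraries in N2B27 had 44.1, 45.98 and 40.65. No member of the gene groups described here was called in this test, which does not show that the genotypes change alike.

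The 2 wild type lines differed little for most genes. Of the 12157 members, 90 (0.74%) differed by more than 1 on the log2 scale between the change of the Ctr line and that of the WT line, and 4 by more than 2, with a median absolute difference of 0.19. Of the members called at least 2-fold, 2034 that rose and 1002 that fell did so by at least 2-fold in each line. The largest difference was that of Tmem254c, at 1.75 and 23.16 FPKM in ES cells and 1.73 and 0.01 in N2B27, beside its near-identical copy Tmem254b, at 16.15 and 0.97 FPKM in ES cells and 20.14 and 27.87 in N2B27. The 2 copies moved in opposite directions within ES replicate 2. Histone genes with near-identical copies, such as Hist1h2ad at 3.16 and 0 FPKM in ES cells and 0 and 3.08 in N2B27, made up 5 of the 10 largest differences, and estimates for such copies are uncertain.

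**Figure D5:**
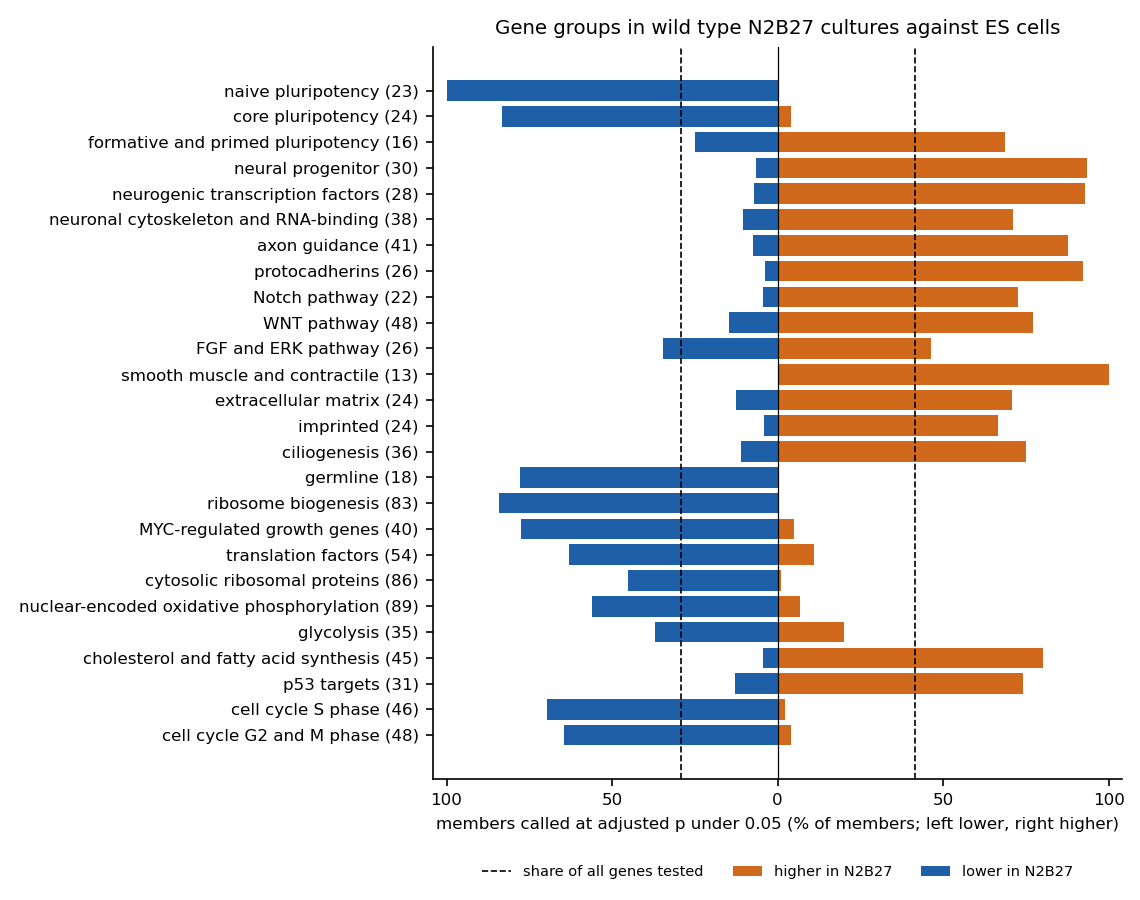
Share of the members of 26 gene groups that were higher (orange, right) or lower (blue, left) in wild type N2B27 cultures than in ES cells at an adjusted p under 0.05, in percent of the members given in brackets; dashed lines mark the shares over all genes tested, 41.5% and 29.2%. Naive pluripotency and contractile genes lie at 100% lower and higher, the ribosome biogenesis, MYC-regulated, germline and S phase bars extend past the lower line, and the FGF bar is close to both lines.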

How the data were processed

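Messenger RNA was sequenced in 15 libraries of mouse ES cell cultures. The authors deposited 1 table of FPKM per gene, per the file headers; per the submitters' processing notes, Bowtie2, RSEM and mm10 were used, in roles they do not give. From the deposited FPKM, log2(FPKM + 1) was computed for the 12929 genes with at least 1 FPKM in at least 2 libraries, and group means were fitted with limma 3.58.1 (R 4.3.3) with trend over all 15 libraries, which share 1 estimate of the spread with 9 residual degrees of freedom. Adjusted p-values are Benjamini-Hochberg over all genes of a contrast, at 0.05. FPKM is not a count, so no count test was run. Depth was estimated from the steps of low FPKM values, where 60.2% to 62.9% of 295 to 405 values were whole within 0.1 fragments, beside a median of 16.0% to 16.7% over other totals; it is an estimate. 27 symbols that spreadsheet software had turned into dates were restored through their gene IDs, and 18717 IDs matched RefSeq.

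The members, gene lists, motifs and promoters were chosen with earlier results of these data known. The named genes are a fixed list, the 20 largest changes per direction among calls without overlap, up to 4 per direction in each list role, pairs of related genes, the 10 largest differences between lines, up to 10 per direction of the other contrasts, and every gene of a count of 5 or fewer. Chosen after their values were seen were Gapdh, Pgk1, Tpi1, Lifr and the promoters' genes other than Hmgcs1 and Cyp51. Near-identical copies can share fragments. The method was tested on simulated data. Alternatives were a pseudocount of 0.1, no filter, the libraries of a contrast only, median-ratio and TPM scaling, a replicate block and leaving out each library. The titles name the same lines (Ctr, WT and 3 Mettl5-/- lines) in each culture, so replicate numbers pair the samples by line; the deviations of the same line in 2 cultures correlated with r = -0.178 to 0.265. Figures used matplotlib 3.10.9. Some results are not reported here.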

Additional observations from a re-analysis of the deposited data

Results flagged for a closer look

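Fhl1 differed between genotypes in the size of its rise in N2B27, by a test of the difference itself (Mettl5-/- change minus wild type change -1.02 on the log2(FPKM + 1) scale, standard error 0.14, adjusted p = 0.0442 by limma). Its FPKM was 10.27 and 9.36 in wild type ES cells, 82.16 and 73.5 in wild type N2B27 cultures, 10.76, 13.21 and 10.44 in Mettl5-/- ES cells, and 44.1, 45.98 and 40.65 in Mettl5-/- N2B27 cultures. The 3 Mettl5-/- libraries in N2B27 lay below both wild type libraries. The cause was not tested.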

How the results depend on the processing

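In the wild type N2B27 and ES comparison 5367 genes were higher and 3775 lower. No call reversed under any alternative, and the counts stayed within 1.5 times: 5407 and 3800 with a pseudocount of 0.1, 6195 and 4163 without the filter, 5254 and 3676 with the libraries of the contrast only, 4661 and 4596 with median-ratio scaling, 5817 and 3323 with TPM scaling, and 4798 to 5011 and 3323 to 3477 without 1 library. With the replicate block, which pairs samples by line, they were 5347 and 3757, and among the genes named above the block ended only the call of Ptbp1. The share of calls that were higher was 58.7% as deposited, 50.4% with median-ratio scaling and 63.6% with TPM scaling. The genotype difference rested on few calls: higher genes numbered 0, but 1 without the filter, 1 with TPM scaling and 0 to 28 without 1 library (28 without Mettl5-/- N2B27 replicate 2); lower genes numbered 1, but 0 with a pseudocount of 0.1, 3 without the filter, 0 with the libraries of the contrast only and 0 to 4 without 1 library. The cause was not tested. Of the settings run on named genes 5524 kept their call, 149 lost it, 7 gained one and 0 reversed; of those on list counts 58 moved by over 1.5 times and 1282 did not. Depth limits genes near 1 FPKM, and with 2 libraries a group the lone library left in leave-one-out fits is assumed to vary like the other groups.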

Other observations

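Antigen presentation and interferon genes, not described above, were called in both directions in N2B27, with 6 of 16 members higher (37.5%) and 5 lower (31.2%; 8 genes without N2B27 replicate 2), near the 41.5% and 29.2% of all genes tested. Tap1, the peptide transporter, rose by 3.15 and B2m, the shared subunit of class I molecules, by 2.36 on the log2 scale, while Ifitm3, a membrane protein that blocks virus entry, fell by 2.41 and Irf1 fell by 1.52. Genes of the unfolded protein response rose in 13 of 20 cases and fell in 3 (1 without ES replicate 2 or N2B27 replicate 1), with a median of 0.39, led by Herpud1 (1.12), which acts in the clearance of misfolded proteins. Of 26 ATF4 and amino acid stress members 9 rose (34.6%) and 8 fell (30.8%), also near the 41.5% and 29.2% of all genes tested. Atf3 (3.31) and Ddit3 (1.72) were higher, and Nupr1 (-2.82) and the arginine transporter gene Slc7a3 (-1.30) lower.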
